A study of Homo sapiens with 18 samples.

Results

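The Hippo pathway and the genes its effectors YAP and TAZ are known to drive were followed as 36 genes, out of 20365 in each of the deposited expression tables. The genes were taken by symbol from a list of pathway roles. They comprise 21 genes of the pathway core, which are the coactivators, the TEAD factors, the kinases and their regulators, and 15 target genes, which are described apart from the core. All 36 were found in both tables, and all 36 passed the minimum mean of 10 normalised counts for testing (13764 genes passed in the knockdown table and 13105 in that of the peptides).

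The cells were PC3, a long-established line of human prostate cancer, and 18 RNA-seq libraries were made, 3 from each of 6 groups. In the knockdown experiment, cells kept in 10% FCS (foetal calf serum) were transduced with lentivirus for a short hairpin RNA. The hairpin was aimed at Elongin B in the group EloB KD and at Elongin C in EloC KD, and Control KD received a control hairpin. In the peptide experiment, cells in 2.5% FCS were given a peptide for 24 h at 12,5 µM (with the decimal comma of the labels). The peptide carried a BC-box in its wild-type form (WT), in a mutant form or scrambled, so every library of this experiment, controls included, was exposed to a peptide. Elongin B and Elongin C are the adaptor of cullin ubiquitin ligases, whose receptors bind it through a BC-box, and they are partners of the transcription elongation factor Elongin A. The hairpin and peptide sequences, the number of hairpins per gene and the time from transduction to harvest are not given in the sources used here. The labels number the replicates but do not say that they were separate cultures, so p-values measure only the spread between these samples.

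Reads counted per library numbered 40.3 to 57.2 M for the knockdowns and 31.7 to 34.7 M for the peptides. The hairpins lowered their own targets: ELOB (chromosome 16) had 478 to 596 normalised counts in EloB KD against 2626 to 4950.3 in Control KD, and ELOC (chromosome 8) had 492 to 558 in EloC KD against 4097 to 4797 in Control KD. KLK3, which encodes prostate-specific antigen, was at 0 in all 18 libraries. Epithelial keratins were abundant in every library (KRT19 at 13936 or above). Of the leukocyte markers, PTPRC did not exceed 13.4 normalised counts and LYZ, the highest, reached 138. The 2 experiments were normalised in separate tables, so no test was made between them.

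In the Hippo pathway the kinases STK3 and STK4 (also called MST2 and MST1), with the adaptor SAV1, activate the kinases LATS1 and LATS2, which work with MOB1A or MOB1B. LATS kinases phosphorylate the coactivators YAP (YAP1) and TAZ (WWTR1), which keeps them in the cytoplasm and marks them for degradation. Unphosphorylated YAP and TAZ enter the nucleus, bind the TEAD transcription factors and raise the transcription of genes of growth, adhesion and matrix, and some of these targets, LATS2 and AMOTL2 among them, feed back on the pathway. The transcript levels given here do not measure the phosphorylation or the location of YAP and TAZ.

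The promoter sequence of the target genes is shown because TEAD factors are known to bind DNA at the letters CATTCC, and because CCN2 is the textbook target with several such sites beside its start. The sequences are the 250 bases before the RefSeq transcription start on GRCh38.p14, 5′ to 3′ on the strand of the gene, for CCN2 (chr6:131951373-131951622, minus strand), THBS1 (chr15:39580829-39581078, plus strand) and GADD45B (chr19:2475877-2476126, plus strand). These were among the first 4 targets with a window in the table, ordered by the number of comparisons in which a target passed the test and, where that number was equal, by its smallest adjusted p. The fourth, FJX1, is not printed because 41 bases of its window lie inside its annotated transcript. Capitals mark the TEAD letters, CATTCC or, read from the other strand, GGAATG.
CCN2: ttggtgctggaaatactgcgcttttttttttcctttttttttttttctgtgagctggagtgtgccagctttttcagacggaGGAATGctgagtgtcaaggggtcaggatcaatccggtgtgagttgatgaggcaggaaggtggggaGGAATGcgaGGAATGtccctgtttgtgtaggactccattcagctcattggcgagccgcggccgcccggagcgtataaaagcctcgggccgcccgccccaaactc
THBS1: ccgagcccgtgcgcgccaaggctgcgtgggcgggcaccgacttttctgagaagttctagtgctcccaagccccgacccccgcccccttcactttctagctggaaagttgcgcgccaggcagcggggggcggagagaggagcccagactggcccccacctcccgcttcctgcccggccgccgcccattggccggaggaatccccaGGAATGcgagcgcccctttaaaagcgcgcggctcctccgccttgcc
GADD45B: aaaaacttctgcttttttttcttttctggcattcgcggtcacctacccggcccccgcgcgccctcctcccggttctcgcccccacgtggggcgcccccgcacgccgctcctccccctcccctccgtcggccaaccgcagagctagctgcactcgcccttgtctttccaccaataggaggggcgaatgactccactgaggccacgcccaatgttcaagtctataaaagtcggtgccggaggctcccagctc
The CCN2 window held 3 matches, all as GGAATG, whose first bases lie 169, 104 and 95 bases before the start. The THBS1 window held 1, beginning 46 bases before the start, and GADD45B and FJX1 held none. Such letters are common: 11.9% of 35116 promoter windows of this length held CATTCC on either strand. The RefSeq table matched 27 of the 36 genes, all but TEAD1, TEAD4, STK3, LIMD1, CCN1, CRIM1, ARHGEF17, ASAP1 and DLC1. Some genes had several windows, and a gene was counted if any of them held the letters, so these counts are not like the share per window. CATTCC was present in 6 of the 10 matched targets (ANKRD1, AXL, CCN2, NUAK2, PTPN14 and THBS1) and in 3 of the 17 matched core genes (AJUBA, AMOTL2 and YAP1). For AXL, AMOTL2 and AJUBA it was in a window inside the gene and not in the window at the annotated gene start. The AP-1 letters TGANTCA (either strand), present in 6.57% of windows, occurred in ANKRD1 and F3 among the targets and in LATS1 and MOB1B among the core genes. The CArG box, the SRF motif, was in 1.16% of all windows and in none of these 27. The overlap that kept FJX1 from being printed did not exclude a gene from these counts. The window bases inside the annotated gene numbered 250 for PTPN14, 189 for ANKRD1, 46 for NUAK2 and 41 for F3. These matches describe letters in a short window and do not show binding.

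Levels were compared between genes per kb of annotated exon length. In Control KD the most abundant of the 36 was the target MYOF, which encodes the membrane repair protein myoferlin, at 3985 ± 314 normalised counts per kb (SD, n = 3). WWTR1 (2643 ± 239), the MOB1A kinase cofactor (1616 ± 45.6) and YAP1 (1414 ± 77.6) followed, and of these MOB1A and YAP1 lay close together. Among the TEAD factors, TEAD2 (1110.4 ± 87.3) and TEAD1 (955 ± 31.9) lay above TEAD4 (396 ± 58.4) and TEAD3 (144 ± 31.1). Of the kinases, STK4 (645 ± 42.9) was the highest per kb, then LATS1 (261 ± 20.8), LATS2 (98.3 ± 11) and STK3 (70.8 ± 1.09). The last place depends on the length, which takes all annotated exons of a gene together: 12597 bases for STK3 and 5578 for LATS2. Before division by length STK3 had more counts than LATS2 in every Control KD library. The lowest members were AMOT (14.7 ± 1.98), an angiomotin that holds YAP at junctions and actin, and ANKRD1 (5.62 ± 2.81), a nuclear ankyrin repeat protein.

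The first comparison set EloC KD against Control KD and asked how loss of Elongin C alters this pathway. Of the 15 targets, 10 rose and 1 fell, led by ANKRD1, CCN1, THBS1, NUAK2 and DLC1. In the core, 7 genes rose and 5 fell: YAP1, LATS2, AMOTL1, AMOTL2, AJUBA, WWC1 and VGLL4 were higher, and WWTR1, TEAD2, LATS1, STK3 and STK4 were lower. The test was limma on log2(normalised count + 1), with p-values adjusted by Benjamini and Hochberg's method across every gene in the fit and a threshold of 0.05. It called 42.5% of all genes in this comparison (21.3% higher and 21.2% lower), against 12 of 21 core genes (57.1%) and 11 of 15 targets (73.3%). The median log2 fold change was 0.92 over the targets and 0.13 over the core, beside 0.01 over all genes tested. The 3 EloC KD libraries lay outside the range of Control KD for 13 core genes and 11 targets, as they did for 53.7% of all genes. With the replicate number as a block (same-numbered libraries of the groups taken as pairs), limma called 13 core genes and 14 targets, beside 57% of all genes.

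EloB KD was compared with the same Control KD libraries. The targets FJX1 and DLC1 rose and PTPN14 fell, and the other 12 of 15 did not pass the test. In the core, NF2 and AJUBA rose and WWTR1, TEAD1, LATS1, STK3 and STK4 fell, 7 of 21. Over all genes 20.5% were called (9.34% higher and 11.2% lower), so the share of called targets (20%) was near the background and that of core genes was 33.3%. Median log2 fold changes were 0.18 for the targets and -0.04 for the core, beside 0.00 over all genes. The replicate numbers were taken as pairing the samples. With the number as a block limma called 10 core genes (4 higher and 6 lower) and 6 targets (4 higher and 2 lower), against 36.3% of all genes. EloB KD libraries did not overlap Control KD for 11 core genes and 7 targets (38.4% of all genes).

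The knockdowns were also compared with each other. Relative to EloC KD, EloB KD had lower levels of 12 of the 15 targets and higher levels of FJX1 and ARHGEF17. Only AXL among the targets did not pass. In the core 9 genes were lower and 3 (WWTR1, TEAD2 and NF2) higher. The background here was large, with 46.1% of all genes called (22.3% higher and 23.8% lower) and 56.3% not overlapping. The median log2 fold change was -0.71 over the targets, -0.10 over the core and -0.01 over all genes. The count of targets depended on single libraries. Without EloC KD replicate 2 it was 9 (all lower in EloB KD), with NUAK2, CCN1, CCN2, THBS1, PTPN14, MYOF, ASAP1, GADD45B and DLC1 called. It was 10 without EloB KD replicate 1, 10 without EloB KD replicate 3, 11 without EloC KD replicate 1 and 8 without replicate 2 of every group. With the replicate block 14 core genes and all 15 targets were called, beside 59.4% of all genes. EloC KD replicate 2 was the highest library of its group for 11 of the 15 targets, and EloB KD replicate 2 for 16 of the 21 core genes.

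**Figure D1:**
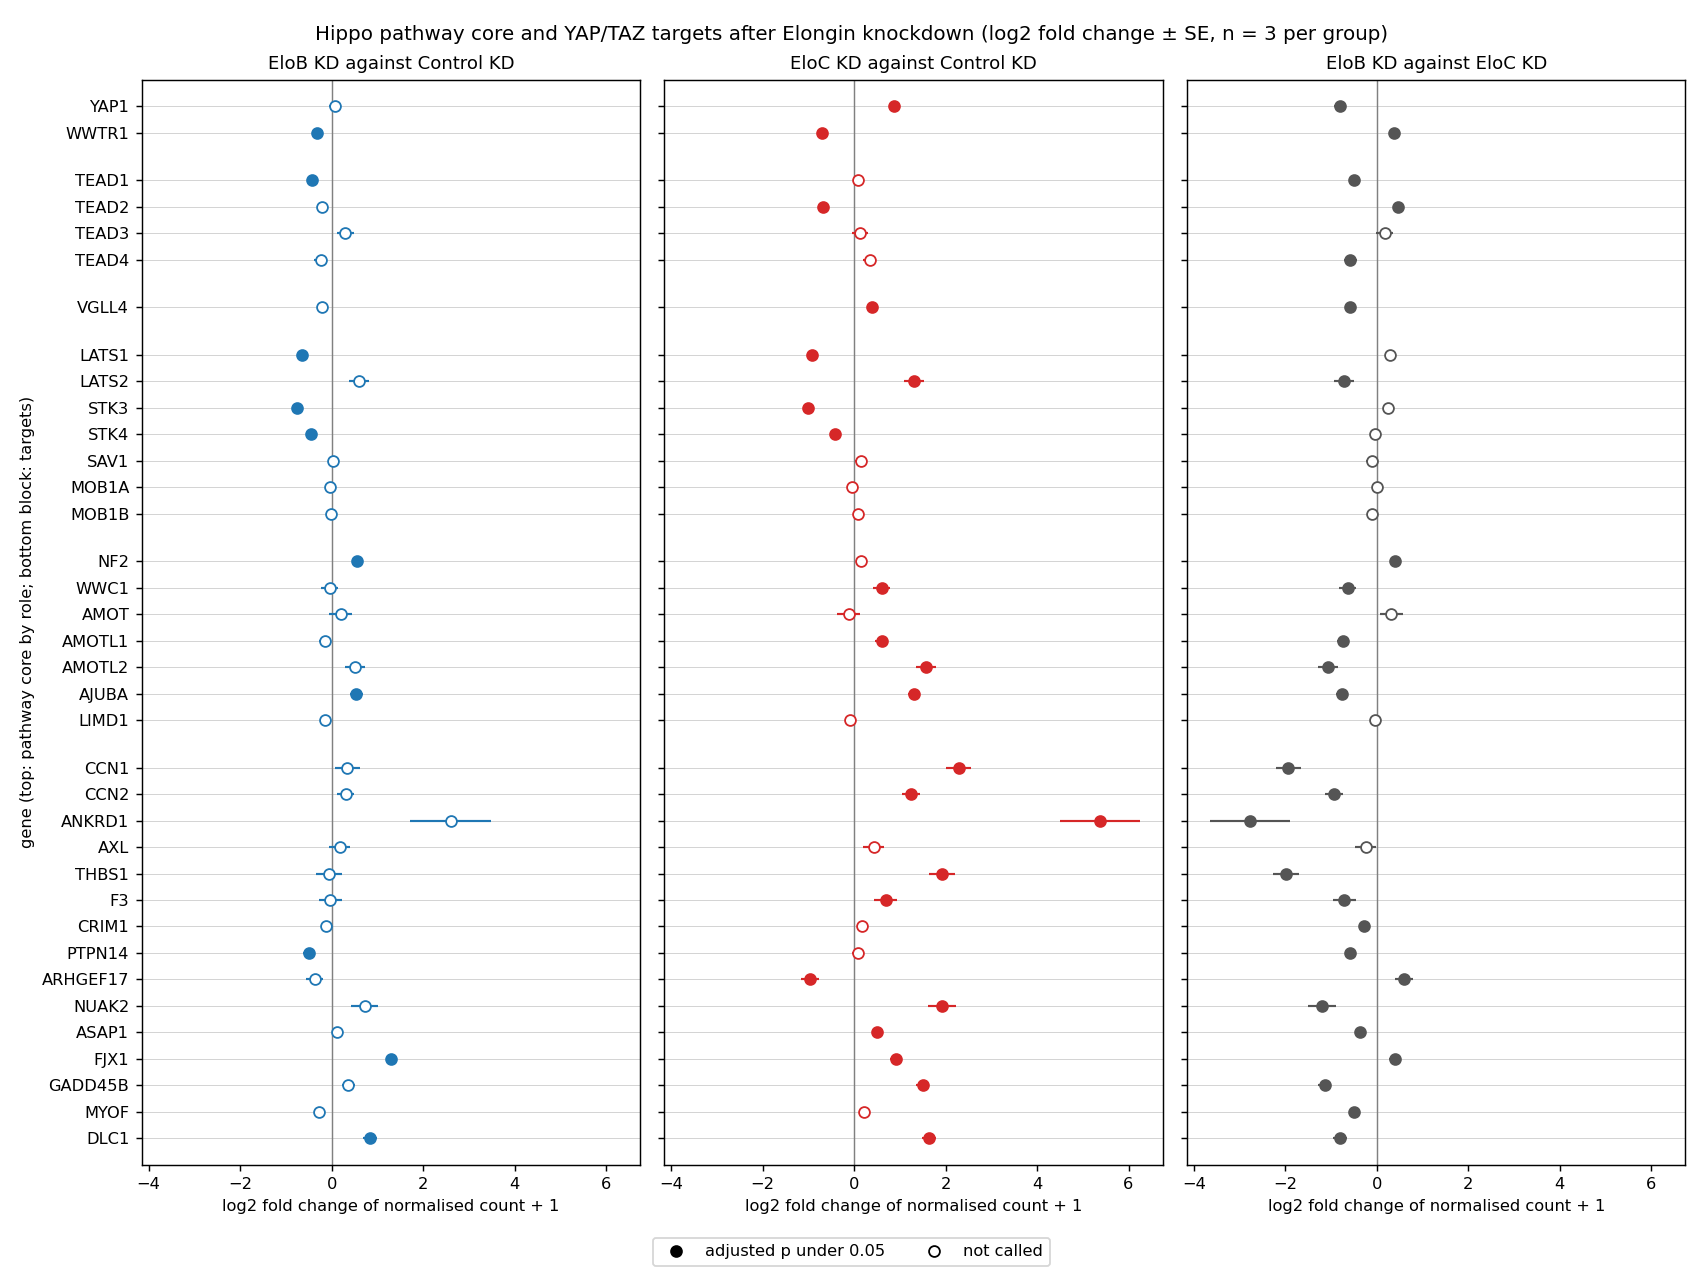
Log2 fold change of each of the 36 genes in the 3 knockdown comparisons (points, with bars of 1 SE, n = 3 per group; filled points passed an adjusted p of 0.05 in limma). Most targets lie right of 0 in EloC KD, ANKRD1 farthest at 5.37, and 12 of 15 lie left of 0 and filled where EloB KD is set against EloC KD.

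The coactivator genes changed in opposite directions in EloC KD. YAP1 (GRCh38, GENCODE release 29, chromosome 11, 102110461 to 102233423) had 9209.7, 9163 and 8341 normalised counts in Control KD, 8612, 11007 and 8527 in EloB KD and 16088, 19241 and 14184 in EloC KD. All 3 EloC KD libraries were above the other 6, and EloB KD overlapped Control KD. YAP1 rose by 0.88 ± 0.13 on the log2 scale in EloC KD (1.84-fold, adjusted p 0.00045 in limma), and its value in EloB KD was 0.07 ± 0.13 (95% interval -0.22 to 0.35). In RNA from whole cultures, fewer cells of a kind and less RNA per cell cannot be told apart. WWTR1, which encodes TAZ (chromosome 3, 149517235 to 149736714), had 24343, 22033 and 20332 in Control KD, 16846, 19783 and 16497 in EloB KD and 14217, 13661 and 12997 in EloC KD. The 3 groups did not overlap and were ordered Control KD, EloB KD, EloC KD from high to low. WWTR1 fell by 0.70 ± 0.10 on the log2 scale in EloC KD (adjusted p 0.000357), and the difference between the knockdowns was 0.37 ± 0.10 (adjusted p 0.0107, and 0.107 without replicate 2 of every group). In EloB KD it fell by 0.33 ± 0.10 (adjusted p 0.0398), a call that was lost without Control KD replicate 1 (adjusted p 0.127) or 2 (0.0911) and without EloB KD replicate 1 (0.106) or 3 (0.127). Under quantile scaling the EloB KD value was -0.16 (adjusted p 0.226).

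Set against each other per kb, WWTR1 transcripts outnumbered YAP1 transcripts by 1.8 to 1.98 in the Control KD libraries and by 1.35 to 1.46 in EloB KD. In EloC KD the ratio was 0.531 to 0.686, so YAP1 was the more abundant coactivator transcript in all 3 of those libraries and in none of the other 6. In the peptide experiment the ratio was 1.51 to 1.65 with the scrambled, 1.73 to 1.87 with the mutant and 1.55 to 1.66 with the WT peptide. These ratios are descriptions without a test.

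Of the TEAD transcription factors, which carry the DNA contact for YAP and TAZ, TEAD1 fell in EloB KD and TEAD2 in EloC KD. TEAD1 (chromosome 11, 12674591 to 12944483) had 9899, 10100.4 and 9459.9 normalised counts in Control KD, 6791, 8338 and 6896 in EloB KD and 10899, 11003 and 9224 in EloC KD. The EloB KD libraries were the 3 lowest. TEAD1 fell by 0.43 ± 0.10 on the log2 scale in EloB KD (limma adjusted p 0.0164) and differed by -0.50 from its level in EloC KD (adjusted p 0.00276), and its value in EloC KD was 0.08 ± 0.10 (95% interval -0.15 to 0.30). The call against Control KD was lost without Control KD replicate 2 (adjusted p 0.0559), EloB KD replicate 1 (0.055) or EloB KD replicate 3 (0.0603). TEAD2 (chromosome 19, 49340595 to 49362457) had 3295, 3576 and 3056 in Control KD, 2853, 2834 and 2877 in EloB KD and 2209.7, 1862 and 2158 in EloC KD, with no overlap between any pair of groups. It fell by 0.67 ± 0.09 in EloC KD (adjusted p 0.000352) and had a value of -0.21 ± 0.09 in EloB KD, which did not pass (adjusted p 0.147). TEAD4 had 751, 946 and 1004, 696, 755 and 827 and 1025, 1091 and 1299.9 in the same order of groups. Its difference between the knockdowns was -0.58 ± 0.14 (adjusted p 0.00646, and 0.0535 without replicate 2 of every group), whereas against Control KD neither knockdown passed (-0.24 in EloB KD and 0.34 in EloC KD). With the replicate block the EloC KD value of TEAD4 passed (adjusted p 0.00624). TEAD3, the least abundant of the family, had values of 0.30 ± 0.18 and 0.13 ± 0.18, and neither passed. VGLL4, which competes with YAP for TEAD binding, rose by 0.38 ± 0.07 in EloC KD (adjusted p 0.00231). Its EloB KD value was -0.22 ± 0.07 (adjusted p 0.0622, 0.0266 with the block), and the knockdowns differed by -0.60 ± 0.07 (adjusted p 0.000128).

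**Figure D2:**
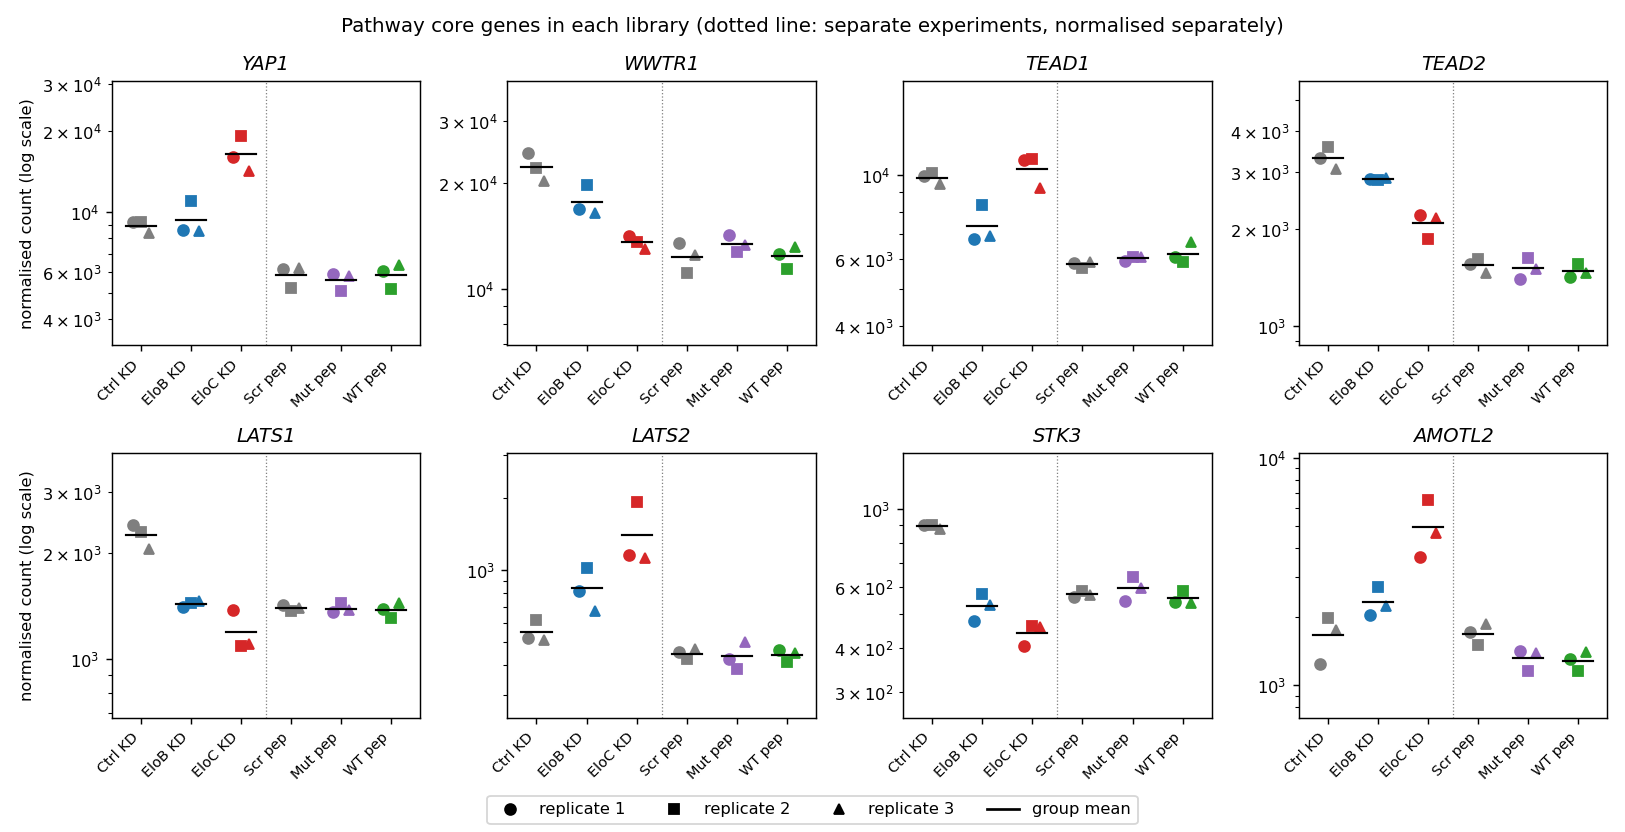
Normalised counts (log scale) of 8 core genes in each of the 18 libraries, with marker shapes for replicates 1 to 3 and a bar at each group mean; the dotted line parts experiments that were normalised separately. LATS1 and STK3 are lower in all 6 Elongin knockdown libraries than in Control KD, LATS2 and AMOTL2 are highest in EloC KD, and the 3 peptide groups lie close together except for AMOTL2.

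Of the 4 kinases, LATS1, STK3 and STK4 fell in both knockdowns and LATS2 rose in EloC KD. LATS1 (chromosome 6, 149658153 to 149718256), one of the kinases that phosphorylate YAP and TAZ, had 2417, 2294 and 2064 normalised counts in Control KD, 1407, 1439 and 1462 in EloB KD and 1380.4, 1086 and 1099.9 in EloC KD. No knockdown library reached the Control KD range. LATS1 fell by 0.65 ± 0.11 on the log2 scale in EloB KD (limma adjusted p 0.00295) and by 0.93 ± 0.11 in EloC KD (adjusted p 0.000148). LATS2 (chromosome 13, 20973032 to 21061547), its paralog and a known YAP target, had 518, 619 and 508 in Control KD, 817, 1023 and 673 in EloB KD and 1153, 1918 and 1116 in EloC KD. The order was the reverse of that of LATS1, with Control KD lowest and EloC KD highest and no overlap between groups. LATS2 rose by 1.31 ± 0.22 in EloC KD (adjusted p 0.000872). Its EloB KD value was 0.60 ± 0.22, which did not pass without the block (adjusted p 0.0776) and did with it (0.00269). The difference of -0.71 ± 0.22 between the knockdowns (adjusted p 0.0205) was lost without EloB KD replicate 1 (0.0518), EloB KD replicate 3 (0.083) or EloC KD replicate 2 (0.0677), the last of which left -0.46. Per kb, LATS2 stood at 0.332 to 0.418 of LATS1 in Control KD, at 0.714 to 1.1 in EloB KD and at 1.29 to 2.74 in EloC KD, a ratio given as a description. The ratio depends on the annotated exon lengths, 8643 bases for LATS1 and 5578 for LATS2. Before division by length, LATS2 was below LATS1 in EloC KD replicate 1 (1153 against 1380.4). It was close to LATS1 in replicate 3 (1116 against 1099.9) and above it in replicate 2 (1918 against 1086).

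The upstream kinase STK3 (chromosome 8, 98371228 to 98942827) had 901, 900.1 and 877 normalised counts in Control KD, 478, 571 and 532 in EloB KD and 407, 463 and 459 in EloC KD, with every knockdown library well below the controls. It fell by 0.76 ± 0.11 on the log2 scale in EloB KD and by 1.01 ± 0.11 in EloC KD (limma adjusted p 0.00136 and 9.56e-05). STK4 had 6253, 5835 and 5474 in Control KD, 3866, 4484 and 4421 in EloB KD and 4530.1, 4349.8 and 4271 in EloC KD. Here too the knockdown libraries lay below all controls, while the knockdowns overlapped each other. STK4 fell by 0.46 ± 0.09 and 0.42 ± 0.09 (adjusted p 0.00497 and 0.00358). These are the comparisons with shared Control KD libraries, and the direct difference between the knockdowns was -0.04 ± 0.09 for STK4, 0.25 ± 0.11 for STK3 and 0.28 ± 0.11 for LATS1. None of these 3 passed without the block, and with it STK3 (adjusted p 0.04) and LATS1 (0.0238) were higher in EloB KD. None of the adaptors passed: SAV1, MOB1A and MOB1B had log2 fold changes between -0.04 and 0.14 across both comparisons with Control KD. The widest 95% interval among these 6 values was -0.11 to 0.40, for SAV1 in EloC KD.

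Among the upstream regulators and junction scaffolds, 4 of 7 rose in EloC KD and 2 of 7 in EloB KD, and no member fell, beside 42.5% and 20.5% of all genes called in either direction. NF2, which encodes merlin, a membrane-linked activator of LATS, had 3804, 4677 and 4319.6 normalised counts in Control KD, 6356, 6778 and 5703 in EloB KD and 4410.4, 5374 and 4504 in EloC KD. The EloB KD libraries were the 3 highest of the 9. NF2 rose by 0.56 ± 0.11 on the log2 scale in EloB KD (limma adjusted p 0.00633), with 0.16 ± 0.11 in EloC KD (not passed). The difference between knockdowns was 0.40 ± 0.11 (adjusted p 0.0137, lost without EloB KD replicate 2 at 0.0519 or EloC KD replicate 1 at 0.053). WWC1, which encodes the scaffold KIBRA, rose by 0.60 ± 0.19 in EloC KD (adjusted p 0.0256), from 965, 1358 and 1104 to 1458, 2181 and 1579.9. That call was lost without Control KD replicate 1 (0.086) or 3 (0.06) and without EloC KD replicate 2 (0.101). WWC1 differed between EloB KD and EloC KD by -0.64 (adjusted p 0.0173, and 0.0669 without EloB KD replicate 1 and 0.0689 without EloC KD replicate 2).

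The angiomotins tether YAP to junctions and actin, and AMOTL2 (chromosome 3, 134355874 to 134375479) is also a YAP target. It had 1239.8, 1976 and 1753 normalised counts in Control KD, 2030.4, 2718 and 2228 in EloB KD and 3663, 6551 and 4649 in EloC KD. The 3 groups did not overlap. AMOTL2 rose by 1.57 ± 0.22 on the log2 scale in EloC KD (2.96-fold, limma adjusted p 0.000352), and its EloB KD value of 0.51 ± 0.22 passed only with the block (adjusted p 0.134 without and 0.00237 with it). AMOTL1 rose by 0.60 ± 0.13 in EloC KD (adjusted p 0.00486) and was -0.14 ± 0.13 in EloB KD. AMOT itself, at 84.7 to 175 normalised counts in the 9 knockdown libraries, passed in neither comparison (intervals -0.36 to 0.76 and -0.68 to 0.44). The LIM proteins AJUBA and LIMD1 bind and restrain LATS kinases. AJUBA had 3703, 3964 and 3759.6 in Control KD, 4908, 6193 and 5629 in EloB KD and 7929, 11776 and 9000.4 in EloC KD, again without overlap. AJUBA rose by 0.54 ± 0.14 in EloB KD (adjusted p 0.0195) and by 1.31 ± 0.14 in EloC KD (adjusted p 6.84e-05). The EloB KD call was lost without Control KD replicate 1 (0.0548) and without EloB KD replicate 2 (0.0696) or 3 (0.0581). LIMD1 values were -0.13 ± 0.08 and -0.08 ± 0.08, neither of which passed. Between the knockdowns, AMOTL1 (-0.73), AMOTL2 (-1.06) and AJUBA (-0.77) were lower in EloB KD, with adjusted p values of 0.00132, 0.00285 and 0.00126.

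Among the targets, the genes for the secreted matricellular proteins CCN1, CCN2 and THBS1 all rose in EloC KD, as did ANKRD1. CCN1 (CYR61, chromosome 1, 85580761 to 85583962) had 1579.8, 2110.2 and 2459 normalised counts in Control KD, 2028, 2914 and 2852 in EloB KD and 6546, 15558 and 9252 in EloC KD. All EloC KD libraries were above the rest, and EloB KD overlapped Control KD. CCN1 rose by 2.28 ± 0.28 on the log2 scale in EloC KD (4.86-fold, limma adjusted p 0.000165), and its EloB KD value was 0.35 ± 0.28 (interval -0.27 to 0.97). CCN2 (CTGF), the target with 3 CATTCC matches in its promoter window, had 1269, 1070.5 and 1838, 1482, 1629 and 1958 and 2735, 3727 and 3257 in Control KD, EloB KD and EloC KD. The pattern across groups was that of CCN1 at a smaller size, with a rise of 1.24 ± 0.19 in EloC KD (adjusted p 0.000594) and a value of 0.31 ± 0.19 in EloB KD (interval -0.12 to 0.73). THBS1, which encodes thrombospondin-1, had 1466, 2624 and 1979.6, 1379, 2707 and 1806 and 6758, 10442 and 5915. It rose by 1.93 ± 0.28 in EloC KD (3.8-fold, adjusted p 0.000447), and the EloB KD value, with libraries overlapping the controls, was -0.06 ± 0.28 (interval -0.69 to 0.57). Between the knockdowns the log2 difference was -1.93 ± 0.28 for CCN1, -0.94 ± 0.19 for CCN2 and -1.98 ± 0.28 for THBS1 (adjusted p 0.000333, 0.00269 and 0.000307).

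ANKRD1 (chromosome 10, 90912096 to 90921276) went from the lowest member to a moderate level. It had 4.71, 14.1 and 14.6 normalised counts in Control KD (5, 16 and 12 reads), 19.6, 196 and 72.9 in EloB KD and 168, 1523 and 369 in EloC KD. Both knockdowns lay above Control KD in every library but spread widely, with replicate 2 the highest in each. ANKRD1 rose by 5.37 ± 0.88 on the log2 scale in EloC KD (limma adjusted p 0.000829), 41.5-fold on the scale of the normalised count plus 1, which understates changes of genes this low. Without EloC KD replicate 2 the log2 value was 4.50, without EloC KD replicate 1 it was 6.09, and without replicate 2 of every group it was 4.73. The EloB KD value was 2.60 ± 0.88, which passed with the block (adjusted p 0.000479) and not without it (0.061). The difference between knockdowns, -2.77 ± 0.88 (adjusted p 0.025), was lost without EloB KD replicate 1 (0.097) or 3 (0.0562) or EloC KD replicate 2 (0.0999). That difference ranged from -3.55 without EloB KD replicate 2 to -1.92 without EloB KD replicate 1 and -1.90 without EloC KD replicate 2.

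**Figure D3:**
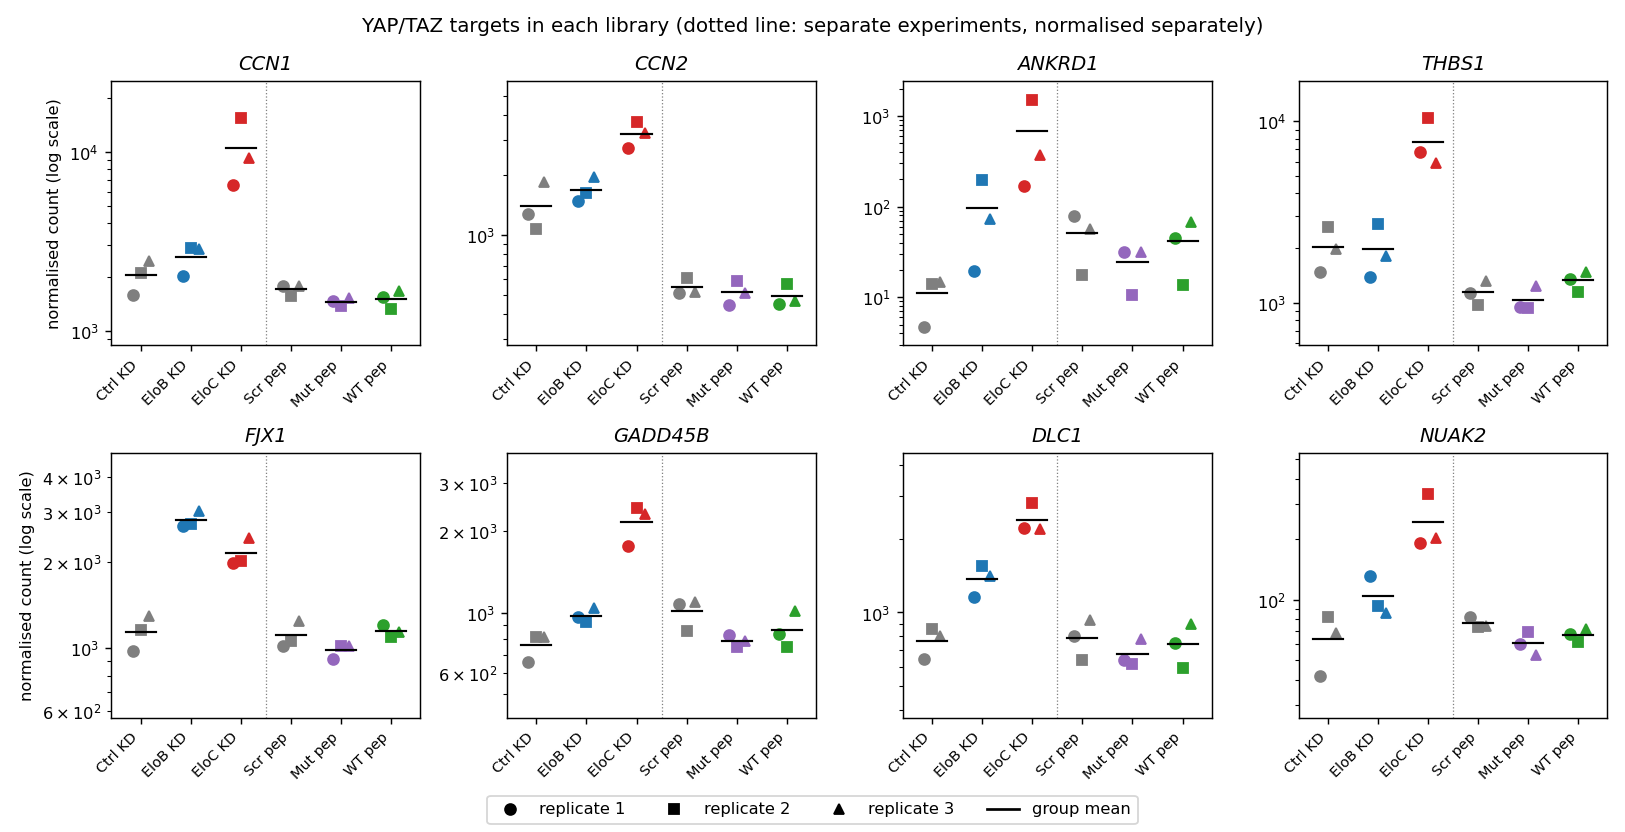
Normalised counts (log scale) of 8 target genes in each of the 18 libraries, with marker shapes for replicates 1 to 3 and a bar at each group mean; the dotted line parts experiments that were normalised separately. EloC KD is highest for CCN1, CCN2, ANKRD1, THBS1, GADD45B and DLC1, with replicate 2 of EloC KD at the top for ANKRD1 (1523) and CCN1 (15558), whereas FJX1 is highest in EloB KD.

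Of the signalling and cytoskeletal targets, NUAK2, GADD45B and DLC1 were highest in EloC KD and FJX1 in EloB KD. NUAK2, an AMPK-related kinase, had 41.5, 81.7 and 68.2 normalised counts in Control KD, 131, 93.2 and 86.2 in EloB KD and 191, 334 and 203 in EloC KD, and rose by 1.92 ± 0.30 on the log2 scale in EloC KD (limma adjusted p 0.000624). Its EloB KD value was 0.72 ± 0.30 (adjusted p 0.118). GADD45B, a stress sensor of the GADD45 family, had 657, 812 and 813, 963, 920.1 and 1035 and 1752, 2418 and 2317 in Control KD, EloB KD and EloC KD. The groups did not overlap. GADD45B rose by 1.5 ± 0.14 in EloC KD (adjusted p 4.01e-05), and its EloB KD value of 0.36 ± 0.14 passed only with the block (adjusted p 0.0977 without and 0.0194 with it). DLC1, a GTPase-activating protein (chromosome 8, 13083361 to 13604610), rose in both knockdowns, from 646, 856 and 801 in Control KD to 1160.1, 1553 and 1405 in EloB KD and 2205, 2802 and 2190.4 in EloC KD. The log2 fold changes of DLC1 were 0.84 ± 0.15 and 1.64 ± 0.15 (adjusted p 0.00379 and 3.83e-05). FJX1, a secreted glycoprotein homologous to the Drosophila gene four-jointed, was the exception in order. It had 973, 1156 and 1300.3 in Control KD, 2686, 2719 and 3026 in EloB KD and 1993, 2022 and 2443 in EloC KD. FJX1 rose by 1.31 ± 0.13 in EloB KD and by 0.92 ± 0.13 in EloC KD (adjusted p 0.000145 and 0.000295). Its level in EloB KD exceeded that in EloC KD by 0.39 (adjusted p 0.0269), a call lost without EloB KD replicate 3 (0.0947) and without EloC KD replicate 1 (0.0892) or 2 (0.0846), and without replicate 2 of every group (0.153).

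Smaller changes were measured for the remaining targets. ASAP1, an Arf GTPase-activating protein, rose by 0.49 ± 0.09 on the log2 scale in EloC KD (limma adjusted p 0.00148) with 0.13 ± 0.09 in EloB KD. F3, the coagulation initiator tissue factor, rose by 0.69 ± 0.25 in EloC KD with an adjusted p of 0.0469, from 352, 351 and 235 to 385, 758 and 417 normalised counts. The call rested on single libraries: without EloC KD replicate 2 it was 0.38 (adjusted p 0.161), and leaving out Control KD replicate 1, 2 or 3 gave adjusted p values of 0.0527, 0.0576 and 0.154. ARHGEF17, a guanine nucleotide exchange factor, was the 1 target that fell in EloC KD, by 0.97 ± 0.19 (adjusted p 0.00242), from 418, 495 and 543 to 246, 213 and 285. PTPN14, a phosphatase that binds YAP and holds it in the cytoplasm, was the 1 target that fell in EloB KD, by 0.50 ± 0.12 (adjusted p 0.0152). It went from 7681, 6968 and 6839.8 to 5339, 5052 and 4770.5, and the call was lost without Control KD replicate 1 (adjusted p 0.0506) or EloB KD replicate 3 (0.0553). In EloC KD the PTPN14 value was 0.08 ± 0.12 (interval -0.19 to 0.34).

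AXL, a receptor tyrosine kinase, MYOF and CRIM1, a transmembrane regulator of BMP signals, did not pass in either comparison with Control KD. AXL had 4993, 8899 and 6123 normalised counts in Control KD and 7816, 9903 and 8568 in EloC KD, and replicate 2 was the highest in each of these groups. With the replicate block, limma gave adjusted p values in EloC KD of 0.00311 for AXL (0.43 on the log2 scale), 0.0426 for CRIM1 (0.17) and 0.0177 for MYOF (0.22). MYOF in EloB KD, at -0.29, also passed with it (0.00889). Between the knockdowns MYOF was lower in EloB KD by -0.51 (adjusted p 0.00213), PTPN14 by -0.58 (0.00281), ASAP1 by -0.37 (0.00695), NUAK2 by -1.20 (0.00788), GADD45B by -1.14 (0.000123) and DLC1 by -0.81 (0.00161). ARHGEF17 was higher in EloB KD by 0.59 (0.0262), F3 was lower by -0.71 (0.0382) and CRIM1 by -0.28 (0.0408). Without replicate 2 of every group the calls of ASAP1 (0.0655) and NUAK2 (0.0691, at -0.88) were lost, as were those of ARHGEF17, F3 and CRIM1 (0.0694, 0.207 and 0.0535). The last 3 were also lost without single libraries. Without EloC KD replicate 2 their adjusted p values were 0.0925, 0.127 and 0.134, and without EloB KD replicate 1 they were 0.0942, 0.069 and 0.119. ARHGEF17 was also lost without EloC KD replicate 1 (0.0596), F3 without EloB KD replicate 2 (0.0796) or 3 (0.0924), and CRIM1 without EloB KD replicate 3 (0.127) or EloC KD replicate 1 (0.0818).

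Markers of cell identity were read in both knockdowns. Of 5 epithelial markers (EPCAM, KRT8, KRT18, KRT19 and CDH1) 4 were lower in EloC KD, beside 21.2% of all genes. In EloB KD 1 of the 5 was lower, beside 11.2%. That share (20%) was near the 20.5% of all genes called there in either direction. Summed levels were 20646 to 25164 normalised counts in EloC KD, 29883 to 38746 in Control KD and 25525 to 29737 in EloB KD. KRT19 alone, at 13936 to 26395 in these libraries, was most of each sum. Of 6 fibroblast markers, 5 of which were tested, COL1A1, LUM and PDGFRA were higher in EloC KD and COL1A2 lower. Over all genes 42.5% were called in that comparison. The fibroblast sums were 2944 to 3659 in EloC KD, 888 to 1275 in Control KD and 895 to 1403 in EloB KD. DCN, a defining fibroblast gene, stayed at or below 17.2 in all knockdown libraries. Of 4 endothelial markers, CDH5 and VWF did not exceed 24.6 and 10.2, whereas KDR had 627 to 3819 and PECAM1 1224 to 2239 in the knockdown libraries. Their sums were 2634 to 3827 in EloC KD, 3519.8 to 5668 in Control KD and 2802 to 3873 in EloB KD. The 5 leukocyte markers summed to 61.1 to 84.2, 122 to 146 and 65.3 to 136 in the same groups. The part of these markers in the target gene result was not tested.

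WT peptide, mutant peptide and scrambled peptide were compared pairwise, 3 pairs at 1 dose and 1 time, to ask whether a BC-box peptide moves the pathway as well. None of the 36 genes passed in any of the 3 comparisons with limma. The WT and mutant comparisons share the scrambled libraries. Over all genes limma called 1.43% for WT against scrambled, 0% for mutant against scrambled and 0% for WT against mutant. At an unadjusted p under 0.05 there were 1753, 1142 and 898 genes. edgeR called no member in any pair, and DESeq2 called TEAD3, AMOTL1 and AMOTL2 lower with the WT peptide and no member in the other pairs. The WT libraries lay outside the scrambled range for 4 core genes and 1 target (19.7% of all genes), the mutant ones for 5 core genes and 3 targets (13.7%), and WT and mutant did not overlap for 1 core gene and 1 target (12.1%). The target median was -0.06 on the log2 scale for WT against scrambled, -0.14 for mutant against scrambled and 0.05 for WT against mutant, and the core medians were -0.02, -0.03 and -0.01.

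With the replicate number as a block, limma called more genes in all 3 peptide comparisons. It called 6 members for WT against scrambled (16.2% of all genes), 8 for mutant against scrambled (8.3%) and 4 for WT against mutant (4.09%). AMOTL2 had 1714, 1503 and 1852 normalised counts with the scrambled, 1418, 1159 and 1383 with the mutant and 1302, 1156 and 1397 with the WT peptide. All 6 libraries of the BC-box peptides, WT and mutant, were below all 3 scrambled libraries. The log2 fold change of AMOTL2 was -0.39 ± 0.10 for WT and -0.36 ± 0.10 for mutant against scrambled (adjusted p 0.114 and 0.323 without the block, 2.69e-05 and 0.000261 with it). WT and mutant differed by -0.04 ± 0.10 (95% interval -0.27 to 0.20). Without replicate 2 of every group AMOTL2 was the 1 core gene called for WT against scrambled. In EloC KD, an experiment normalised apart, AMOTL2 was higher than in its own control.

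**Figure D4:**
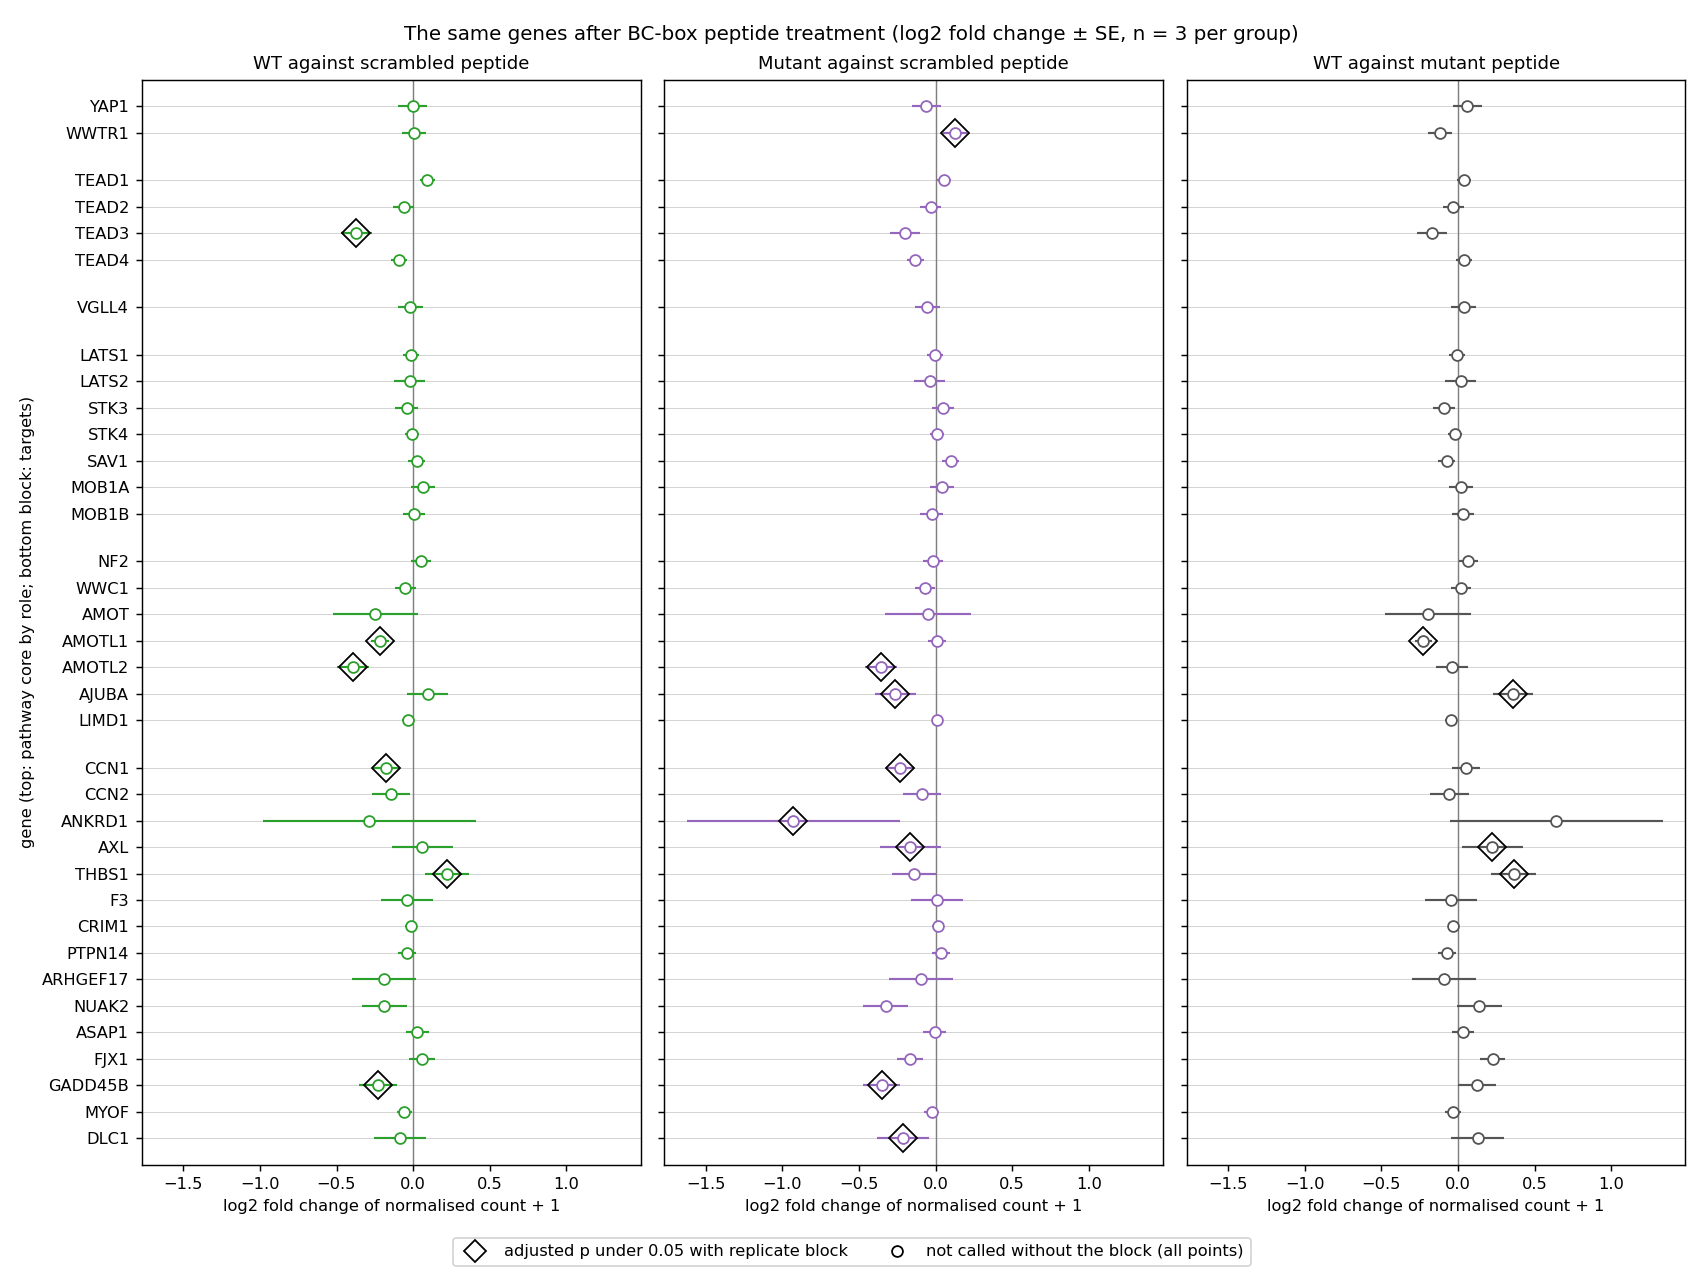
Log2 fold change of each of the 36 genes in the 3 peptide comparisons (points, with bars of 1 SE, n = 3 per group; diamonds passed an adjusted p of 0.05 with the replicate number as a block, and none passed without it). AMOTL2 lies near -0.39 and -0.36 against the scrambled peptide, YAP1 lies near 0 in all 3 panels, and ANKRD1 has the widest error.

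AMOTL1 and TEAD3 were lower with the WT peptide under the block. AMOTL1 had 2912, 3000.3 and 2640.4 normalised counts with the scrambled, 2993, 2899 and 2709 with the mutant and 2453, 2483 and 2414 with the WT peptide. The WT libraries were the 3 lowest of the 9. Its log2 fold change was -0.22 ± 0.06 against scrambled and -0.23 ± 0.06 against mutant (limma adjusted p 0.00144 and 0.0045 with the block, 0.111 and 0.438 without). TEAD3 had 348, 376 and 362, 325, 305 and 314 and 285, 244 and 315 with the scrambled, mutant and WT peptide. The scrambled libraries were above all others, and the WT value was -0.37 ± 0.10 (adjusted p 0.0104 with and 0.117 without the block). AJUBA had 3209, 2755 and 3653, 2668, 2433 and 2882 and 3603, 2805 and 3893, so that in each replicate number the mutant was the lowest. With the block the AJUBA difference was -0.26 for mutant against scrambled (adjusted p 0.00196) and 0.36 for WT against mutant (0.000515), and its interval for WT against scrambled was 0.00 to 0.19. WWTR1 was higher by 0.13 with the mutant than with the scrambled peptide (adjusted p 0.0477 with the block). YAP1 did not pass in any of the 3 pairs, with blocked intervals of -0.07 to 0.07, -0.13 to 0.01 and -0.01 to 0.13 for WT against scrambled, mutant against scrambled and WT against mutant.

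With the block, targets lay on both sides of their scrambled level: GADD45B and CCN1 were lower with either BC-box peptide and THBS1 was higher with WT. GADD45B had 1078, 859 and 1093 normalised counts with the scrambled, 825, 749 and 787 with the mutant and 832, 748 and 1011 with the WT peptide. The mutant libraries were all below the scrambled ones. With the block GADD45B was lower by -0.35 on the log2 scale with mutant and by -0.23 with WT (limma adjusted p 0.00558 and 0.0351). CCN1 had 1769, 1556 and 1788, 1463, 1368 and 1526 and 1548, 1323 and 1658, a difference of -0.23 for mutant and -0.18 for WT (0.00472 and 0.0124 with the block). THBS1 had 1129, 974 and 1321, 939.9, 927 and 1238 and 1354, 1149 and 1477, and with the block it was higher by 0.22 than scrambled (adjusted p 0.012) and by 0.36 than mutant (0.00183). ANKRD1, at 79, 17.7 and 56.1 with the scrambled, 31.6, 10.6 and 31.9 with the mutant and 45, 13.8 and 68.2 with the WT peptide, was lowest in replicate 2 of each group. AXL, with a mutant value of -0.16, DLC1 (-0.21) and ANKRD1 (-0.93) were lower than scrambled with the block only (adjusted p 0.014, 0.0493 and 0.0232). AXL was also higher by 0.22 with WT than with mutant (0.00441). CCN2 did not pass with or without the block, with values of -0.15 ± 0.13 for WT and -0.09 ± 0.13 for mutant against scrambled (intervals -0.43 to 0.14 and -0.37 to 0.19).

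A further 65 genes of the pathway, grouped by role, were read in the same fits. Of 32 tested upstream inputs (atypical cadherins, polarity proteins, RASSF proteins and MAP4K or TAO kinases), 12 were higher and 4 lower in EloC KD, and 3 higher and 4 lower in EloB KD. Both shares were near those of all genes (42.5% and 20.5% called). FRMD6, the willin scaffold that acts with merlin, was higher in EloC KD (14325 ± 2401 against 5237 ± 909 normalised counts, log2 1.45 ± 0.15, limma adjusted p 6.26e-05). MAP4K4, a kinase that can phosphorylate LATS in parallel to STK3 and STK4, was higher by 0.85 ± 0.09 (6.45e-05) and RASSF1, an adaptor of these kinases, by 1.10 ± 0.12 (8.78e-05), whereas RASSF2 was lower by -1.59 (0.000219). In EloB KD the kinases TNIK (-0.78) and TAOK1 (-0.50) and the cadherin FAT1 (-0.68) were lower and FAT4 was higher (1.51), with adjusted p values of 0.00045, 0.0049, 0.0293 and 0.00706. STRIPAK is the phosphatase complex that removes phosphate from STK3 and STK4. Of its 12 genes, 3 were lower in EloB KD, namely SIKE1 (-1.20 ± 0.15, adjusted p 0.000486), CTTNBP2NL (-0.73 ± 0.14, 0.00541) and STRIP2 (-0.36 ± 0.10, 0.0265). In EloC KD 1 of the 12 was higher, SLMAP (0.36 ± 0.09, 0.00864), and none was lower. The EloB KD share was near the 20.5% called over all genes, and the EloC KD share lay below the 42.5%. Between the knockdowns SIKE1 differed by -1.56 ± 0.15 (adjusted p 2.81e-05).

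The genes for turnover of YAP and TAZ were read too. BTRC, the ubiquitin ligase receptor for phosphorylated YAP, was higher by 0.86 ± 0.16 on the log2 scale in EloC KD and CSNK1D, the kinase that completes the phosphodegron, by 0.48 ± 0.07 (limma adjusted p 0.00163 and 0.000534). In EloB KD CSNK1E alone of the 4 listed passed (0.37 ± 0.09, 0.0177). The shares called, 2 of 4 in EloC KD and 1 of 4 in EloB KD, were near those of all genes (42.5% and 20.5%). VGLL3, a TEAD cofactor, was higher in EloB KD (1.41 ± 0.39, 0.0289), with 0.49 ± 0.39 in EloC KD. Of 9 further targets tested, 5 were higher and 1 lower in EloC KD, 1 was higher and 3 lower in EloB KD, and all 9 passed between the knockdowns, 8 of them lower in EloB KD, beside 42.5%, 20.5% and 46.1% of all genes called. EDN1, the vasoconstrictor endothelin-1, was higher in both (114 ± 16.7 in EloB KD and 422 ± 182 in EloC KD against 25.4 ± 13.1 normalised counts in Control KD; adjusted p 0.00415 and 5.95e-05). CCDC80, a secreted matrix protein, was lower by -0.76 in EloB KD and higher by 1.08 in EloC KD (0.00105 and 5.47e-05), and the difference between the knockdowns was -1.84 ± 0.11 (2.62e-06). AREG, the EGF receptor ligand amphiregulin, was lower in EloB KD (-1.52, 0.000868), and TGFB2 was higher in EloC KD (2.06, 0.000156). With the WT peptide 2 of these 9 passed, beside 1.43% of all genes: IGFBP3, an insulin-like growth factor binding protein, was lower (1914 ± 285 against 3183 ± 198, log2 -0.74 ± 0.11, adjusted p 0.00968) and AREG was higher (0.40 ± 0.08, 0.0464).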

How the data were processed

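Stranded mRNA libraries were made from DNase-treated total RNA, per the labels' protocols. Reads were aligned to hg38, counted with featureCounts and normalised with DESeq2, per the submitters' processing notes, whose versions are not given in the sources used here. The authors deposited 1 table per experiment, whose signal is each gene's read count divided by a size factor. Division by the smallest step of each library gave whole reads (tolerance 0.05) for 100% of values. The authors' own test tables were not used here. Some marker genes are not reported here. No column of these tables was left unmapped.

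The test used limma 3.58.1 (R 4.3.3), with a trend of the variance on the level, on log2(normalised count + 1). It took genes whose mean over the 9 libraries of their experiment reached 10. The 3 groups shared 1 estimate of the spread. Tests were 2-sided, adjusted by the Benjamini-Hochberg method across every gene in the fit, at a threshold of 0.05, and errors of log2 fold changes are SEs of the fit. A permutation test of 3 against 3 cannot go below 0.1, so single genes rest on this fit. edgeR 4.0.16 and DESeq2 1.42.0 were run on the recovered reads as alternatives. The procedure was tested on simulated data.

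To check whether replicate numbers pair samples, each library's deviations from its group mean were correlated with those of other libraries across genes. Same-number pairs gave 0.236 to 0.566 (knockdown) and 0.254 to 0.715 (peptide), and other pairs -0.439 to 0.0703 and -0.546 to 0.336. All 18 same-number pairs exceeded 0.1, so the numbers were taken as pairing the samples, and a fit with the number as a block is given where it changes a call. In the peptide experiment the ranges of same-number and other pairs overlap, so the pairing is less clear there. Scrambled replicate 3 with WT replicate 1 gave 0.336, above the 0.254 of scrambled replicate 1 with WT replicate 1. The pairing comes from the data, not from the labels.

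The members, the lists of other pathway genes and the markers were chosen with earlier results of these data known, so the direction in which the YAP and TAZ targets moved in EloC KD is not independent evidence. Named genes are the 36 members, ELOB and ELOC, up to 4 genes of each other list with the smallest adjusted p in a comparison, and markers. Positions are from GENCODE release 29 (GRCh38), promoters from RefSeq (GRCh38.p14). Python 3.11.15 was used for sequences and figures. Alternatives were TMM and quantile scaling, pseudocounts of 5 and 0.5, other filters, a fit of only the 2 groups compared, the block, edgeR, DESeq2, a 1.5-fold minimum and each replicate left out. Leaving out replicate 2 of every group was added after seeing the data.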

Additional observations from a re-analysis of the deposited data

How the results depend on the processing

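Of 59 calls of a member in a knockdown comparison, 41 were kept under every alternative other than the 1.5-fold minimum, 18 were lost under at least 1, and none reversed. Counts of members are given as core and targets. For EloB KD against Control KD (7 and 3), the pairing block gave 10 and 6 and DESeq2 9 and 5. A 1.5-fold minimum left 2 core genes and 2 targets there, and leaving out single replicates gave 4 to 7 and 2 to 4. For EloC KD against Control KD (12 and 11), leaving out replicates gave 11 to 12 and 10 to 12, and the block 13 and 14. Between the knockdowns (12 and 14), a 1.5-fold minimum gave 7 and 9, leaving out replicates 10 to 13 and 9 to 14 (9 targets without EloC KD replicate 2), and leaving out replicate 2 of every group 8 targets. With the peptides (0 and 0 in each pair), the replicate block gave 3 and 3 for WT against scrambled, 3 and 5 for mutant against scrambled, and 2 and 2 for WT against mutant. DESeq2 gave 3 core genes for WT against scrambled, and leaving out single replicates 0 in every pair, while without replicate 2 of every group 1 core gene (AMOTL2) was called for WT against scrambled. Over all genes, the block called 4996 for EloB KD, 2122 for WT against scrambled, 1088 for mutant against scrambled and 536 for WT against mutant, against 2822, 188, 0 and 0 without it. DESeq2 called 552, 184 and 62 genes in the peptide pairs. A 1.5-fold minimum left 1595 (EloB KD), 3361 (EloC KD) and 3772 genes (EloB KD against EloC KD), and 36 for WT against scrambled. Leaving out single replicates gave 1915 to 2373 genes for EloB KD, 4506 to 5413 for EloC KD, 66 to 180 for WT against scrambled, 0 to 1 for mutant against scrambled and 0 for WT against mutant, and leaving out replicate 2 of every group gave 1291, 3421, 258, 37 and 21. Fewer samples enter each of these. The block changed no call of a member beyond those given above. At 4.71 to 14.6 normalised counts in Control KD, ANKRD1 was the member most limited by depth.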
